A study of Homo sapiens with 10 samples.

Results

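A stretch of the long arm of chromosome 3 was transcribed at a higher level in 4 of the 10 samples of an edited human lymphoma cell line, wild-type 1 and 4 with R475C 1 and 3 (replicate numbers), than in the other 6. The genes described here start between 100 and 180 Mb on chromosome 3 (GRCh38, GENCODE release 29), and 1170 of the 58721 genes of the count table lie there. Another 61 genes of the window were set aside by name, namely ribosomal protein, NDUF, COX, DHX, EIF, PSM, ZNF and small nucleolar RNA genes, MCM2, HMCES, PARP9, PARP14, PARP15, CD80, CD86 and MME. Both the window and the split of the samples were chosen from the difference between the 4 and the other 6 in these same data. That difference is therefore given as a description, without a test. Of the 1170 genes, 481 had 0 counts in all samples, 353 had counts but did not pass the filter on low counts (mean of at most 0.519 CPM, reads scaled to a common library size), and 336 passed. Passing genes comprised 242 of the 382 protein-coding genes and 94 non-coding genes and pseudogenes, and 219 of the 336 had a mean of at least 5 CPM.

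The series compared DDX3X R475C (4 samples) with wild-type DDX3X (6 samples) in U2392 cells. DDX3X encodes a DEAD-box RNA helicase that takes part in the start of translation. Cells of both groups had received Cas9 with a guide RNA from 1 plasmid and a double-stranded repair template. The template carried either R475C or the wild-type sequence, and, in both cases, silent changes that alter the PAM and add a SpeI site, so the controls were edited too. Cells were then cloned from single cells and poly(A) RNA was sequenced. Which replicates come from different clones is not in the labels, so p-values reflect sample-to-sample spread that may be partly technical. The split into 4 and 6 is not in the labels.

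Gene dosage is the number of copies of a gene that a cell holds. When a chromosome segment is gained or lost, transcripts of most genes on it shift in proportion, while some genes keep their level through their own regulation or are silent in that cell type. Gains of the long arm of chromosome 3 are recurrent in several cancers, B-cell lymphomas among them. Copy number was not measured in these files, so what follows describes transcript levels only.

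To show what kinds of start site lie in the stretch, the promoters of 3 genes are printed, chosen after their values were seen. CDV3 was higher in the 4 samples, SIAH2 was at a like level in both sets, and P2RY12 was lower in the 4. Each sequence spans 250 bases before to 50 bases after the transcription start in RefSeq (GRCh38.p14), written 5′ to 3′ on the gene's strand, with CG dinucleotides in capitals. The windows lie at chr3:133573436-133573735 on the plus strand (CDV3), chr3:150763120-150763419 on the minus strand (SIAH2) and chr3:151384704-151385003 on the minus strand (P2RY12).
CDV3: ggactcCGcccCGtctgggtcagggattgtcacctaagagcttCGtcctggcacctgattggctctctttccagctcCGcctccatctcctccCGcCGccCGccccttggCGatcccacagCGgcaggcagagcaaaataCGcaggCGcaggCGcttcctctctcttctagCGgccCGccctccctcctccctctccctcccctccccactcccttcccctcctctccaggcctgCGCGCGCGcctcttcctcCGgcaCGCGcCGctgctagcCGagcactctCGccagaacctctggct
SIAH2: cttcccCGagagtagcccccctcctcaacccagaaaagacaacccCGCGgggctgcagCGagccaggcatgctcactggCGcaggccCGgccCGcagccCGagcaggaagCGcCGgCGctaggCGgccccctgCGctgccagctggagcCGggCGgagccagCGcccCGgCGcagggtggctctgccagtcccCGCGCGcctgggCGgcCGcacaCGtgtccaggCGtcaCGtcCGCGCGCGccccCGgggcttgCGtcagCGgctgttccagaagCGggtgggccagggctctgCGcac
P2RY12: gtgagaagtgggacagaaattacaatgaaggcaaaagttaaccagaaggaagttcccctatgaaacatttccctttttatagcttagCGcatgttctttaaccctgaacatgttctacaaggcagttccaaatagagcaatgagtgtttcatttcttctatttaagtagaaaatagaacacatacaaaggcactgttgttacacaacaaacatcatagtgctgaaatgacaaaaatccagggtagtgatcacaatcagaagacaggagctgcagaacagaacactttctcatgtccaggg
The CDV3 window holds 24 CG dinucleotides, the SIAH2 window 35 and the P2RY12 window 1, and of the 3 only the P2RY12 window holds TATAAA (searched on both strands).

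Total counts per sample ran from 8928539 (R475C replicate 4) to 53779005 (R475C replicate 2). Among the 5 B-cell markers examined, 5 reached 1 CPM, with summed levels of 2760 to 3780 CPM. T-cell markers summed to 3.84 to 9.69 CPM (3 of 5 at 0 in all samples, 1 above 1 CPM), and myeloid markers to 0.151 to 1.05 CPM (0 of 5 above 1 CPM). Epithelial and stromal markers summed to 24.3 to 39.0 CPM, with EPCAM, DCN and COL1A1 above 1 CPM. Across all genes each of the 10 samples correlated, within its genotype, best with another of its own set (the 4 or the other 6). Whether such samples share a clone was not tested.

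Along chromosome 3, the 675 genes with a mean of at least 5 CPM were divided into segments of like difference, in gene order. Differences are log2 values from an edgeR fit with genotype and set as terms, so that 0.55 stands for the 4 samples being about 1.46-fold higher than the other 6 of the same genotype. From the short-arm end to DUBR (345 genes) the median difference was -0.005. The next segment, called the raised segment below, began at BBX (start 107522936) and ended with KPNA4 (160494995-160565588), a length of 53.0 Mb. It held 186 genes, of which 169 were among those described here, and its median difference was 0.549, with 0.549 from the wild-type samples alone and 0.568 from the R475C samples alone. The next segment of 59 genes, PPM1L to ABCC5, had a median of 0.158, and the last 85 genes one of -0.084. For scale, the log2 of a ratio of 3 to 2 is 0.58, that of 4 to 3 is 0.42 and that of 2 to 1 is 1. The plot along the chromosome shows the step at BBX and a second, smaller step after KPNA4.

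**Figure D1:**
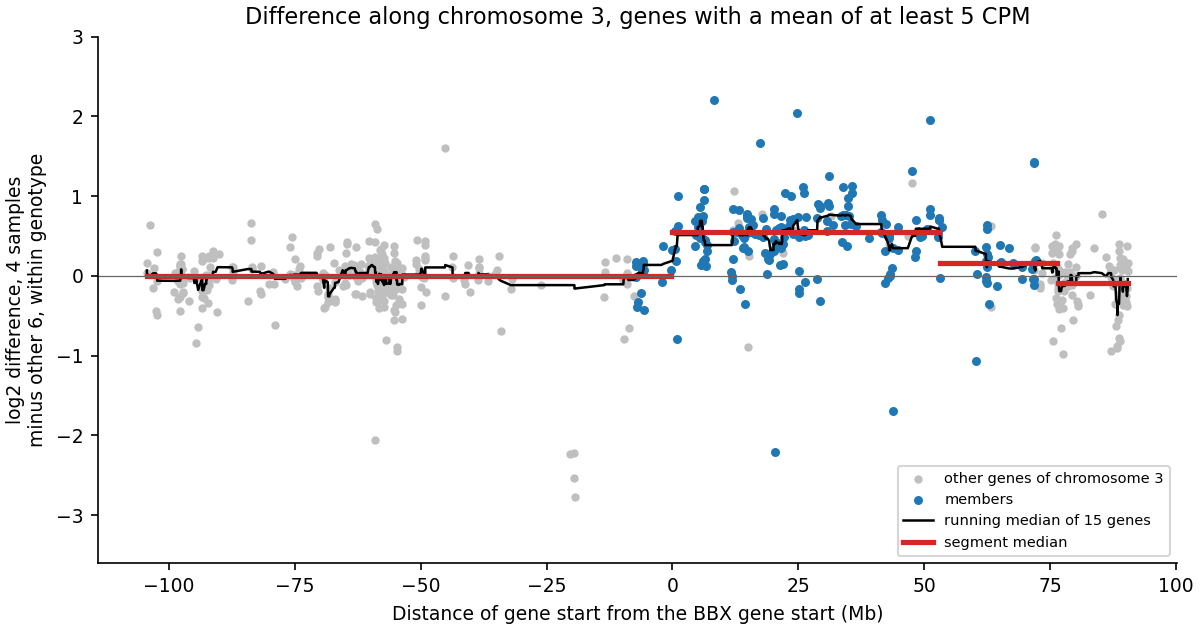
Log2 difference of the 4 samples minus the other 6, within genotype, for the 675 chromosome 3 genes with a mean of at least 5 CPM, against the distance of each gene start from the BBX start in Mb. Blue points are the genes described here, grey points other genes of the chromosome, the black line a running median of 15 genes and the red lines segment medians, which rise from -0.005 to 0.549 at BBX and fall to 0.158 after KPNA4.

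At the first border the genes did not change over sharply. CBLB, a ubiquitin ligase that limits lymphocyte receptor signalling, differed by 0.37 (SE 0.12) and DUBR by 0.07 (SE 0.21), the nearest genes before the border. BBX, an HMG-box protein, differed by 0.33 (SE 0.08), and CD47, the next gene and a surface signal that restrains phagocytes, by 0.56 (SE 0.07). Shortly after it lay 2 escaping genes (as defined below), IFT57 (0.19, SE 0.10) and MYH15 (-0.79, SE 0.25). At the second border, TRIM59 differed by 0.70 (SE 0.14) and KPNA4, an importin alpha, by 0.70 (SE 0.12). Just beyond it, PPM1L, a protein phosphatase, differed by -0.02 (SE 0.13), while NMD3, which exports the large ribosomal subunit, differed by 0.62 (SE 0.10). NMD3, which starts beyond the border, thus had a difference like that of the genes inside it.

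The same segmentation was run for each of the 4 samples against the other samples of its genotype. In wild-type 4 the raised stretch ran from CD47 to KPNA4 with a median of 0.502, and the genes after it had -0.029. In wild-type 1 it began at CD47 too, but with 3 levels. These were 0.639 to OSBPL11, 0.294 from FAM86JP to TMCC1, and 0.735 from ENSG00000203644 (129.85 Mb) to KPNA4. In wild-type 1 alone the genes from PPM1L to MCCC1-AS1 (start 183.02 Mb) also had a raised median, 0.209. R475C 1 ran from CIP2A to PDCD10 (167.68 Mb) with 0.56, and R475C 3 from CIP2A to NMD3 (161.1 Mb) with 0.616. The raised stretch thus began between 108.04 and 108.55 Mb in each of the 4, while its last gene started at 160.49 Mb in wild-type 4, 161.1 Mb in R475C 3 and 167.68 Mb in R475C 1. Among the segmented genes KPNA4, PPM1L, NMD3 and PDCD10 follow each other directly, so these ends lie few genes apart. No segmented gene starts between NMD3 and PDCD10. Runs of 1 genotype share their reference samples and are not independent. Among the other 6, each compared with the rest of its genotype's 6-set samples, wild-type 3, 5 and 6 had no border on the chromosome. Wild-type 2 had a stretch of 10 genes outside the window, from ST6GAL1 (186.93 Mb) to CCDC50 (191.33 Mb), with a median of 0.518. R475C 2 and 4, which served as each other's reference, differed by -0.26 in 38 genes from IFRD2 (50.29 Mb) to NT5DC2 (52.52 Mb), also outside the window. None of these borders fell within the raised segment.

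Within the raised segment, 876 of the 1170 genes were annotated, 263 passed the filter and 169 had a mean of at least 5 CPM. Among these 169 the median difference was 0.551 (1.47-fold), with quartiles of 0.345 and 0.744 and an SD of 0.478 across genes. It was 0.575 in wild-type and 0.545 in R475C. Of the 169, 154 had a positive difference. In 115 the 4 samples lay above the other 6 without overlap within each genotype, and in 2 they lay below. Over all 17045 tested genes 9.09% lay above and 8.95% below in the same sense, but since this contrast chose the genes nothing is read from the gap. Across the 169 genes the wild-type and R475C differences, which share no sample, correlated with Pearson's r of 0.813 and Spearman's rho of 0.74, a description across genes that are not independent replicates.

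Before the segment, 74 genes of the window included 16 with at least 5 CPM, with a median difference of 0.048 (Pearson's r between genotypes 0.219). After it, 220 genes included 34 with at least 5 CPM, with a median of 0.169 and quartiles of -0.037 and 0.303. Across these 34, Pearson's r between genotypes was 0.779 and Spearman's rho 0.518. A high correlation between genotypes was thus not particular to the raised segment. Of those 34, 4 lay above and 2 below without overlap. At the edges of the window, TBC1D23, NIT2 and TOMM70, the first genes inside it, differed by 0.17, 0.13 and -0.02, and CPOX, DCBLD2 and CMSS1, the last genes outside it, by 0.21, -0.65 and -0.25. At the far edge USP13 inside the window differed by 0.19, and TTC14 and CCDC39 just beyond it by -0.10 and -0.15. MRPL47 and NDUFB5, next to USP13 and set aside by name, differed by 0.35 and 0.36. The window edges thus lie outside the raised segment, as drawn over all samples, on both sides. In wild-type 1 alone a smaller raised median (0.209) reached past the far edge, to 183.02 Mb.

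The level of the raised segment in each sample was taken as the median of its 169 genes' log2 levels, each relative to that gene's mean over the 10 samples, minus the same median for chromosome 1. Wild-type replicates 1 to 6 had 0.386, -0.239, -0.196, 0.3, -0.207 and -0.195. R475C replicates 1 to 4 had 0.288, -0.256, 0.352 and -0.278. Within each genotype the 2 samples of the 4 were high, the rest were low, and nothing lay between. In wild-type the mean was 0.343 ± 0.061 (SD, n = 2) against -0.209 ± 0.021 (SD, n = 4), and in R475C 0.32 ± 0.045 (SD, n = 2) against -0.267 ± 0.016 (SD, n = 2). In bulk RNA, a change in every cell and a larger change in fewer cells cannot be told apart. Chromosome 3 genes outside the window stayed between -0.045 and 0.029 in all samples.

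**Figure D2:**
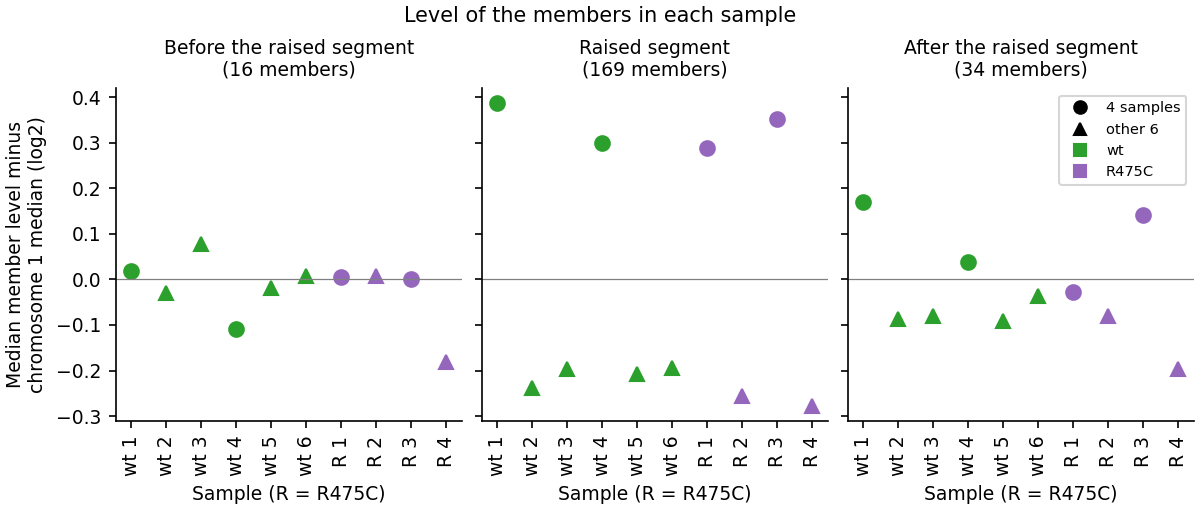
Median log2 level of the genes in each sample, minus the chromosome 1 median, for genes before, in and after the raised segment (16, 169 and 34 genes). Circles are the 4 samples, triangles the other 6, green wild-type and purple R475C. In the raised segment the circles sit between 0.288 and 0.386 and the triangles between -0.278 and -0.195.

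After the segment the same order held, with smaller differences. The 34 genes there had levels of 0.17, -0.086, -0.081, 0.037, -0.092 and -0.036 in wild-type 1 to 6 and of -0.027, -0.08, 0.142 and -0.197 in R475C 1 to 4. Within each genotype the samples of the 4 lay above the rest here too, with wild-type 1 and R475C 3 the highest. Before the segment, the 16 genes had levels from -0.108 to 0.078 in wild-type, with the 4 samples interleaved with the rest. Summed over all 876 genes of the segment, the output was 24610 and 21640 CPM in wild-type 1 and 4 and 15240 to 15770 CPM in the other wild-type samples. It was 23240 and 24230 CPM in R475C 1 and 3, against 16490 and 14860 CPM in R475C 2 and 4.

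Other chromosomes also differed between the sets. Over the 11411 genes with a mean of at least 5 CPM the median difference was 0.007. Over such genes of chromosome 10 it was 0.827 and of chromosome 21 it was 0.582, against 0.074 for chromosome 3 as a whole. All others lay between -0.04 and 0.033. On chromosome 3 itself, outside the window at 87.23 to 88.15 Mb, CHMP2B differed by -2.24 and C3orf38 by -2.78.

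Genes were said to follow the segment when their difference was at least 0.275, the segment median divided by 2, in wild-type and in R475C taken alone, and to escape it when it was below 0.275 in both. By that rule 125 of the 169 followed (74.0%), 21 escaped and 23 were mixed. The difference of 85 genes lay within 0.2 of the segment median. Another 9 exceeded 2 times the segment median in both genotypes, and 8 were opposite in sign in both. The scatter of the genotypes shows the followers as a cloud in the upper right and a few genes far out at either end.

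**Figure D3:**
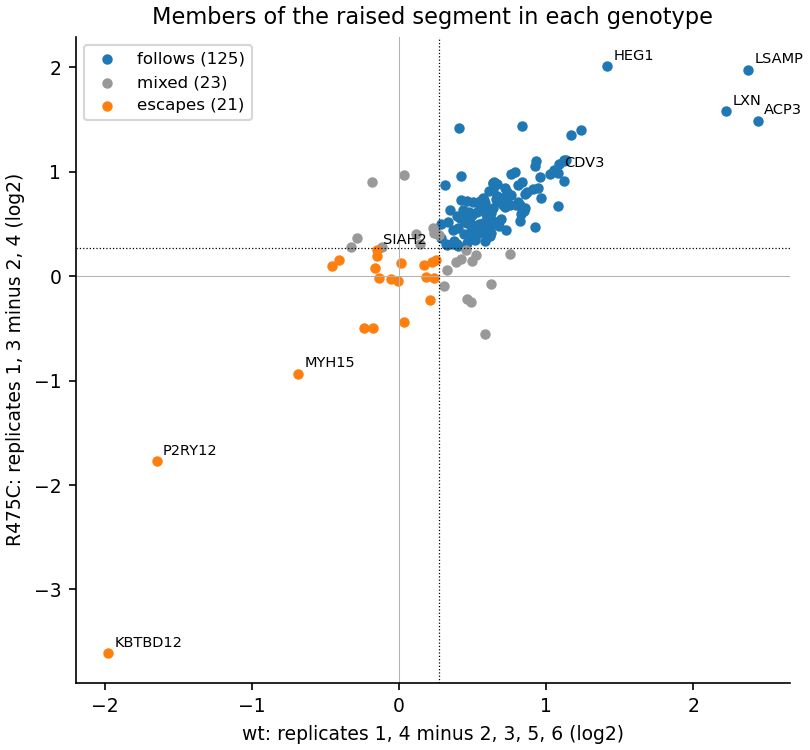
Each of the 169 genes of the raised segment by its log2 difference between the sets in wild-type (x axis) and in R475C (y axis). Blue genes follow (125), orange escape (21) and grey are mixed (23), and dotted lines mark 0.275. LSAMP, ACP3 and HEG1 lie far out at the upper right and KBTBD12 and P2RY12 at the lower left.

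CD47 lay close to the segment median. Its level was 186, 118.3, 112, 160.3, 113.9 and 113.9 CPM in wild-type 1 to 6 and 129.2, 100.3, 141.8 and 90.67 CPM in R475C 1 to 4. The 4 samples were 1.47-fold higher, and within each genotype they lay above the rest. The plot of single-gene levels shows CD47 beside genes with larger, absent or opposite differences.

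**Figure D4:**
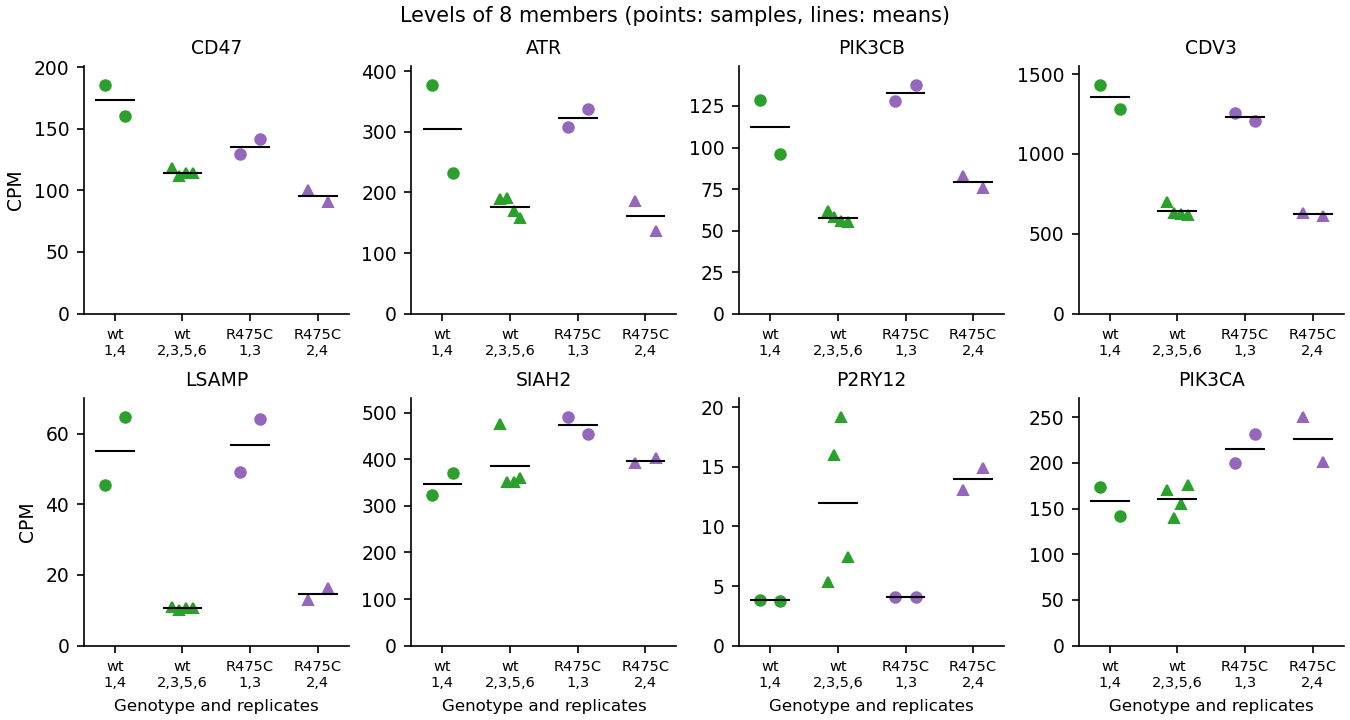
Level in CPM (linear axes from 0) of 8 genes in each sample, grouped by genotype and set, where points are samples and lines are means. CD47, ATR, PIK3CB, CDV3 and LSAMP are higher in wild-type 1 and 4 and R475C 1 and 3, and P2RY12 is lower in the 4 samples. PIK3CA overlaps between sets in both genotypes. SIAH2 overlaps in wild-type, but in R475C it is higher in 1 and 3.

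Genes of DNA replication, repair and cell division followed the segment in 13 of 13 cases with at least 5 CPM, with a median of 0.69. In 12 of them the 4 samples lay above without overlap, as they did in 115 of all 169 genes of the segment. ATR, the kinase that answers replication stress, had 378.3, 188.5, 191.3, 232.1, 168.9 and 158.5 CPM in wild-type and 307.9, 186, 337.5 and 135.9 CPM in R475C, a difference of 0.88 (SE 0.13). Wild-type 1 lay far above wild-type 4, but the lowest of the 4 samples was still above the other 6 of its genotype. STAG1, a cohesin subunit (0.91, SE 0.11), CEP70, a centrosome protein (0.91), and SMC4, a condensin subunit (0.73, SE 0.15), were above the segment median. TOPBP1, which activates ATR, had 0.57 (SE 0.08), the helicase RUVBL1 0.58 and the centrosome protein CEP63 0.52. POLQ, the polymerase of theta-mediated end joining, followed with 0.51 (SE 0.15) but overlapped, since wild-type 4 had 79.55 CPM beside 73.48 to 81.64 CPM in the other wild-type samples apart from wild-type 1 (153.4 CPM). Without wild-type 1 its difference was 0.241, below the 0.275 used for following. MBD4, a DNA glycosylase, had 0.40 (SE 0.08).

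Signalling kinases and GTPase regulators gave 6 of 6 followers, with a median of 0.753. The 4 samples lay above without overlap in all 6, beside 115 of all 169 genes of the segment. PIK3CB, a catalytic subunit of phosphoinositide 3-kinase, had 128.6, 61.61, 58.02, 96, 55.67 and 55.27 CPM in wild-type and 128.3, 82.74, 137.9 and 75.32 CPM in R475C. Its difference was 0.87 (SE 0.09), 1.83-fold. The adaptor NCK1 had 0.88, the Ras GTPase activator RASA2 0.77, the receptor-like kinase RYK 0.74, the class III kinase regulator PIK3R4 0.63 and GSK3B 0.44 (SE 0.08). PIK3CA, the related catalytic subunit, lies at 179148114, beyond the segment. Its level was 173.6, 170.1, 140.2, 142.2, 155.1 and 175.8 CPM in wild-type and 200, 250.6, 231.1 and 201.1 CPM in R475C, with a set difference of -0.04 (SE 0.10) and overlapping sets.

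RNA processing and nuclear transport gave 11 of 12 followers and a median of 0.575. XRN1, the cytoplasmic 5′ to 3′ exonuclease, had 0.98 (SE 0.11), the importin KPNA1 0.76, the splicing protein RSRC1 0.59, the debranching enzyme DBR1 0.56 and the cyclin CCNL1 0.50. MBNL1, a splicing regulator, was mixed with 0.32. CNBP, a zinc-finger protein that binds nucleic acid, was among the smallest followers with 0.35 (SE 0.07).

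Of the endoplasmic reticulum, Golgi and vesicle genes 13 of 14 followed, with a median of 0.508. The Golgi calcium pump ATP2C1 had 0.70, SEC22A 0.72, the translocon-associated SSR3 0.57, PDIA5 0.55, SELENOT 0.52 and the endosomal GTPase RAB7A 0.60 (SE 0.06). SEC61A1, the channel of the translocon, had 0.42 (SE 0.09), and the acetyl-CoA transporter SLC33A1 was mixed at 0.31. Mitochondrial and metabolic genes gave 11 followers of 14, with a median of 0.541. The elongation factor GFM1 had 0.84, GYG1 0.55, FAM162A 0.53 and UMPS, which makes uridine monophosphate, 0.51, while CHCHD6 had 0.20.

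Transcription and chromatin factors and immune surface and lymphocyte signalling genes were more uneven. Of 9 transcription and chromatin genes, 3 followed, 3 escaped and 3 were mixed, with a median of 0.312. ZBTB38, which binds methylated DNA, had 1.12 (SE 0.09) and USF3 0.76. ZBTB20 had 0.31, and MSL2, a ubiquitin ligase of the MSL complex, and KLF15 had -0.04 and 0.03. MSL2 ran from 34.58 to 42.09 CPM in wild-type and from 37.88 to 49.16 CPM in R475C, with sets overlapping. GATA2 could not be judged, with 34 counts over all samples and at most 9 in 1 sample. Of 5 immune surface and lymphocyte signalling genes, CD47 and EAF2, which binds the elongation factor ELL (0.52), followed. SIDT1 (0.18) and the inhibitory receptor TIGIT (0.12) were mixed and P2RY12 escaped, giving a median of 0.181. SIDT1, TIGIT and P2RY12 had means of 10.92, 8.526 and 9.157 CPM, among the 56 genes with the lowest means, of which 30 followed. CD47 and EAF2 had 126.6 and 50.88 CPM, and the escapers MSL2 and KLF15 40.56 and 57.77 CPM. The part of read number in the unevenness was not tested. These lists were made with results of these data known, and no difference between them was tested.

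Among genes with a mean of at least 5 CPM, the 6 with the largest difference along the segment were LSAMP, ACP3, LXN, HEG1, MME-AS1 and FAIM. LSAMP, a cell adhesion protein best known from neurons, had 45.57 and 64.77 CPM in wild-type 1 and 4 and 10.18 to 10.94 CPM in the other 4 wild-type samples. R475C 1 and 3 had 49.05 and 64.19 CPM against 12.78 and 16.34 CPM in R475C 2 and 4, so the 4 samples were 4.63-fold higher (log2 2.21, SE 0.14). The acid phosphatase ACP3 (2.04, SE 0.39), the carboxypeptidase inhibitor LXN (1.96, SE 0.35) and the membrane protein HEG1 (1.67, SE 0.26) were higher in the 4 as well. Their other 6 samples were not uniform. ACP3 had 8.607 and 9.54 CPM in wild-type 2 and 6 and 1.401 and 2.789 CPM in wild-type 3 and 5, while LXN had 3.032 and 2.473 CPM in the first pair and 9.997 and 10.57 CPM in the second. FAIM, an inhibitor of Fas-driven death, had 1.25 (SE 0.14), and MME-AS1, whose exons overlap MME, 1.31 (SE 0.26). CDV3, chosen after its values were seen, had 1435 and 1282 CPM in wild-type 1 and 4, 618.4 to 701 CPM in the other wild-type samples, 1258 and 1209 CPM in R475C 1 and 3, and 633.1 and 613.2 CPM in R475C 2 and 4. The 4 samples were 2.06-fold higher, with a narrow spread in each set (1.04, SE 0.07).

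Among the escapers farthest against the segment, again with at least 5 CPM, were KBTBD12, P2RY12, MYH15, SLC15A2 and SLC35G2. P2RY12, an ADP receptor, had 3.841 and 3.754 CPM in wild-type 1 and 4, and 5.296, 15.98, 19.2 and 7.391 CPM in wild-type 2, 3, 5 and 6. R475C 1 and 3 had 4.079 and 4.076 CPM, against 13.04 and 14.91 CPM in R475C 2 and 4. Its difference was -1.70 (SE 0.32), with no overlap. KBTBD12, a kelch-repeat protein, had 3.23 and 4.393 CPM in wild-type 1 and 4 and 8.316 to 22.41 CPM in the other wild-type samples. In R475C 1 and 3 it had 0 and 0.09058 CPM, and in R475C 2 and 4 it had 0.586 and 1.104 CPM (-2.21, SE 0.41). The R475C values of KBTBD12 are near the floor, and its mean reached 5 CPM only through the wild-type samples. Its set difference and class in R475C are therefore uncertain. P2RY12 and KBTBD12 were the only ones of the 169 whose 4 samples lay wholly below. The myosin MYH15 (-0.79, SE 0.25), the peptide transporter SLC15A2 (-0.35, SE 0.15) and SLC35G2 (-0.31, SE 0.27) overlapped between sets.

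Of the 21 escapers 2 were among the 57 genes with the most reads. SIAH2, a ubiquitin ligase, had 323.6, 476, 351, 370.7, 352.3 and 359.8 CPM in wild-type and 491.6, 391.4, 454.8 and 402.6 CPM in R475C. The sets overlapped in wild-type, while R475C 1 and 3 lay above R475C 2 and 4. Over both genotypes the difference was 0.03 (SE 0.11), far under its neighbours SELENOT (0.52) and SERP1 (0.47), which followed. Within 2 Mb of SIAH2 lay the escapers RNF13 (-0.08, SE 0.08), TSC22D2 (-0.03, SE 0.08), MED12L (0.10, SE 0.09) and P2RY12. TSC22D2 had 54.7 to 65.54 CPM in wild-type and 59.12 to 64.71 CPM in R475C, a narrow range. These neighbours were noticed after their values were seen.

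Followers made up a larger share of the genes with many reads (CPM is not corrected for transcript length). Of the 56 genes with the lowest means (5.34 to 34.4 CPM) 30 followed and 12 escaped. Of the next 56 (35 to 89.1 CPM) 42 followed and 7 escaped, and of the 57 highest (90.5 to 1140 CPM) 53 followed and 2 escaped, SIAH2 and MED12L. The median difference was 0.483, 0.535 and 0.573, and the median SE of a difference 0.161, 0.098 and 0.088, whose part in the trend was not tested. By length the shares were 77.2, 74.5 and 70.2% from the shortest to the longest genes. Genes on the plus strand followed in 73.1% and those on the minus strand in 74.7%. Of 157 protein-coding genes 118 followed and 21 escaped, and of 12 others 7 followed and 0 escaped.

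Along the segment the medians were 0.338 in the 7 genes up to 110 Mb, 0.48 in the 29 from 110 to 120 Mb, 0.512 in the 53 from 120 to 130 Mb, 0.694 in the 31 from 130 to 140 Mb, 0.704 in the 23 from 140 to 150 Mb, 0.485 in the 21 from 150 to 160 Mb and 0.699 in the last 5. Escapers lay in every bin but the last, with 6 between 120 and 130 Mb and 1 between 140 and 150 Mb.

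Outside the raised segment, differences were mostly small. TFG, a secretory pathway protein before the segment, was lower in the 4 samples (-0.33, SE 0.08), with 80.27 and 91.23 CPM in wild-type 4 and 1 against 107.5 to 117.8 CPM in the other wild-type samples. NFKBIZ, which regulates NF-kB family proteins, had -0.42 (SE 0.13), with sets overlapping in wild-type but not in R475C. TBL1XR1, a corepressor subunit after the segment, had 0.11 (SE 0.12), and ECT2, which drives cytokinesis, 0.17 (SE 0.16), both overlapping. Without wild-type 1 these became -0.02 and -0.06, and TBL1XR1 had -0.09 in R475C alone. GNB4, a G protein beta subunit whose gene starts at 179396089 and shares exons with ENSG00000242539, had a large difference. It had 627.7 and 579 CPM in wild-type 1 and 4, 291.8 and 269.5 CPM in wild-type 2 and 6, and 136.2 and 139.3 CPM in wild-type 3 and 5, with 415.1 and 590.8 CPM in R475C 1 and 3 against 215.1 and 198.7 CPM in R475C 2 and 4 (1.42, SE 0.21). SERPINI1, a protease inhibitor, was lower in the 4 (-1.07, SE 0.19). GNB4 and SERPINI1 were chosen after their values were seen.

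Promoter windows of RefSeq matched 106 of the 125 followers and 17 of the 21 escapers by symbol. The median was 25.5 CG dinucleotides per 300-base window in followers and 23 in escapers. It was 23 over the 240 matched windows of the 336 genes that passed the filter and 14 over all 35116 RefSeq windows. TATAAA, on either strand, was found in 7.55% of followers' windows, 11.8% of escapers', 11.2% of those 240 and 11.5% of all. Windows with fewer than 10 CG, as in P2RY12, made up 10.4% of followers, 17.6% of escapers, 20.4% of the 240 and 43.6% of all. The CG-rich windows of CDV3 and SIAH2 printed above belong to the commoner kind in both classes.

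R475C was compared with wild-type, the question of the series, by the quasi-likelihood test of edgeR, with p-values adjusted by Benjamini-Hochberg over all 17045 genes. Among the 336 genes 3 were higher in R475C, namely MED12L, IGSF10 and PIK3CA, and 5 were lower, namely PHLDB2, LINC00882, KBTBD12, EGFEM1P and MYLK-AS1. That is 0.893% higher and 1.49% lower, near the 1.31% and 1.15% of all genes (2.46% in either direction). MED12L, a Mediator subunit paralogue, was at 170.1 ± 19.6 CPM in wild-type (SD, n = 6) and 253.9 ± 14.5 CPM in R475C (SD, n = 4), from 142.5 to 196.9 CPM and from 238.4 to 267.5 CPM without overlap (log2 0.58, SE 0.09, edgeR adjusted p = 0.0102). PIK3CA rose from 159.5 ± 15.9 to 220.7 ± 24.6 CPM (0.47, SE 0.10, edgeR adjusted p = 0.0329), again without overlap. IGSF10 shares exons with MED12L on the opposite strand and had 40.91 ± 8.3 against 63.62 ± 7.05 CPM (edgeR adjusted p = 0.0441), and PIK3CA overlaps KCNMB3 in the same way. Whether counting used strand is not given in the sources, and reads of such pairs cannot be told apart.

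PHLDB2, which anchors microtubules at the cell cortex, fell from 3.87 ± 1.45 to 0.589 ± 0.197 CPM (-2.78, SE 0.41, edgeR adjusted p = 0.00601). KBTBD12 fell from 11.2 ± 7.81 to 0.445 ± 0.509 CPM (-4.86, SE 0.88, edgeR adjusted p = 0.0166). In wild-type it was also lower in the 4 samples, while its R475C levels are too low to compare the sets there. The non-coding LINC00882, EGFEM1P and MYLK-AS1, named after their values were seen, fell by 1.47, 2.00 and 0.77 on the log2 scale. Their means were 2.08, 4.46 and 5.97 CPM in wild-type and 0.76, 1.09 and 3.46 CPM in R475C. When each sample was left out in turn, PHLDB2 and MED12L passed in 10 of 10 refits, KBTBD12 in 9 (lost without R475C 3), LINC00882 in 8 (lost without R475C 2 or R475C 3), PIK3CA in 4, IGSF10 and EGFEM1P in 2 and MYLK-AS1 in 1. The counts then ran from 1 to 6 higher and from 1 to 8 lower, highest without wild-type 1 and lowest without R475C 3.

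Of the 125 followers 0 passed the genotype test by edgeR, 5 had an unadjusted p under 0.05 (17.3% of all genes did) and DESeq2 called 3. In those fits the set difference, by which followers were chosen, counts as spread, so nothing is read from these low counts. DESeq2 called 21 of the 336 genes, against 6.78% of all genes. The sets are unevenly spread over the genotypes, since 2 of 4 R475C and 2 of 6 wild-type samples carry the raised segment. The median R475C minus wild-type difference of the followers was 0.091 without a term for the set and -0.01 with it, and over all genes tested it was 0.002 and -0.003. With the set term, which was defined from these data, edgeR called 10 of the 336 genes higher and 19 lower, 5 and 7 of them followers, against 3.31% and 3.3% of all genes. All 8 genes above also passed in that fit. CD47, for example, then differed by -0.30 (SE 0.07, edgeR adjusted p = 0.0317) and PIK3CB by 0.37 (SE 0.09, edgeR adjusted p = 0.0367), where without the term they had -0.21 and 0.48 with edgeR adjusted p of 0.598 and 0.391.

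Whether the set difference itself depended on the genotype was tested as an interaction. Of the 336 genes 1 passed in edgeR, B3GALNT1, and 20 had an unadjusted p under 0.05, against 0.387% and 5.44% of all genes. No gene of the raised segment passed, where 13 of 263 had an unadjusted p under 0.05. B3GALNT1, a glycosyltransferase gene just beyond the second border, is listed with the results for a closer look.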

How the data were processed

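Poly(A) RNA of 10 samples (6 wild-type and 4 R475C, grouped by their titles) was sequenced. The authors deposited whole-number read counts per gene without normalization. Reads had passed through cutadapt 1.10, STAR 2.6.0c and featureCounts, per the submitters' processing notes. Not given in the sources used here are the build, the annotation and whether counting used strand. All 58721 gene IDs matched GENCODE release 29 (GRCh38), which gave positions, and 58252 had a current symbol. Of the 336 genes kept, 153 overlap exons of another kept gene, 127 of them on the opposite strand, and reads of such pairs may be shared.

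Counts were analysed as deposited with edgeR 4.0.16 in R 4.3.3 (TMM, filterByExpr with a minimum count of 10 and minimum total of 15, glmQLFit and glmQLFTest, two-sided), with Benjamini-Hochberg adjustment over 17045 genes and a threshold of 0.05. The common biological coefficient of variation was 0.282 for genotype alone and 0.206 with the set (4 or 6 samples) added. CPM are TMM-scaled. Chromosome 3 was segmented over genes with a mean of at least 5 CPM by least absolute deviations, scaled by the median absolute difference of neighbouring genes divided by 1.4, with a penalty of 2 log n per border and at least 10 genes per segment. The classes of following and escaping genes were to be given in segments whose median differs by over 0.2 from that of the other chromosome 3 genes. The first segment also met that (-0.005 against 0.211), but with a median near 0 nothing can follow it, so classes were given in the raised segment only. The fits and the segmentation were tested on simulated data.

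The genes, gene lists and the split of the samples were chosen with earlier results of these data known. Named were 20 genes whatever their values, the nearest 2 genes on each side of the segment's borders, the 6 largest differences along and against it, protein-coding genes past the genotype test and up to 3 genes of each list nearest to and farthest from the segment median. 1 gene that this rule selects is not reported here. Others are said to be chosen after their values were seen. Alternatives were DESeq2 1.42.0, no filter, higher CPM limits, the set as a covariate, the replicate number as a block, other segmentation costs, penalties and minimum sizes, and each genotype alone. Leaving out each sample for the borders, and each of the 4 samples alone, were added after seeing the data.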

Additional observations from a re-analysis of the deposited data

Results flagged for a closer look

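Among 78 groups of 4 or 6 values checked, 5 held a value whose gap to the nearest other was past Dixon's 95% limit. Chance gives about 1 in 20 for uniform groups, but each group here mixes samples of the 4 and the other 6. Some of the genes were also named because these sets differ, so the 5 groups cannot be set against that rate. In 3 of them wild-type 1 stood above the other wild-type samples: POLQ had 153.4 CPM there against 73.48 to 81.64 CPM, ATR 378.3 CPM against 158.5 to 232.1 CPM, and SMC4 935.2 CPM against 373.2 to 555.8 CPM. PHLDB2 had 0.8835 CPM in R475C 4 and 0.4726 to 0.5164 CPM in the other R475C samples. The median level of the genes before the raised segment was -0.182 in R475C 4, the library with the fewest counts, and 0.001 to 0.007 in the other R475C samples.

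B3GALNT1 had a set difference that differed between the genotypes. In wild-type 1 and 4 it had 0.0291 and 0.3594 CPM, against 1.603, 5.186, 8.421 and 1.031 CPM in wild-type 2, 3, 5 and 6. In R475C 1 and 3 it had 5.938 and 5.072 CPM, against 0.0189 and 0 CPM in R475C 2 and 4. So the 4 samples were low in wild-type and high in R475C. The fitted log2 difference between the genotypes' set differences was 12.53 (edgeR interaction, Benjamini-Hochberg adjusted p = 0.00815), a size that depends on the prior count because 1 library is at 0. It no longer passed without wild-type 1 or without R475C 2, when 0 genes were called. The gene shares exons with NMD3 on the opposite strand, which was higher in the 4 samples of both genotypes.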

How the results depend on the processing

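The median set difference of the 336 genes was 0.414, with 0.482 over genes with at least 5 CPM and 0.399 to 0.445 when each sample was left out. The median of 0.551 within the raised segment stayed between 0.502 and 0.577 when each sample was left out. The raised segment's first gene started at 107.52 Mb. It started at 108.55 Mb with squared deviations, with at least 5 genes a segment, in R475C alone and in R475C 1 or R475C 3 alone, at 108.04 Mb in wild-type alone and in wild-type 1 or 4 alone, and at 105.66 Mb at 20 CPM. Its last gene started at 160.49 Mb, but at 167.68 Mb with a penalty of 4 log n, in R475C alone and in R475C 1 alone, at 161.1 Mb in R475C 3 alone and at 183.02 Mb in wild-type 1 alone. When each sample was left out the borders ran from 105.66 to 108.55 Mb and from 160.49 to 167.68 Mb. Among the genes segmented over all samples, only PPM1L and NMD3 lie between KPNA4 (160.49 Mb) and PDCD10 (167.68 Mb). The 21 escapers became 11 at a mean of at least 20 CPM, where fewer genes (132) were classed. Escapers ran from 18 to 27 and followers from 114 to 129 when each sample was left out.

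For R475C against wild-type, the 3 higher and 5 lower genes by edgeR became 6 and 15 with DESeq2 and 10 and 19 with the set as a covariate. When each sample was left out, the counts ran from 1 to 6 higher and from 1 to 8 lower. With the replicate number as a block, edgeR called 0 higher and 0 lower (14 and 18 at an unadjusted p under 0.05), and with block and set together 1 higher and 5 lower. Whether the numbers pair the samples is not in the labels. Deviations of same-numbered samples correlated at 0.337, 0.159, -0.269 and -0.212 for numbers 1 to 4. These were positive where both samples belong to the same set and negative otherwise, so they cannot show whether samples are paired. The block drops wild-type 5 and 6 from the comparison, having no partner. The 1 gene whose set difference depended on genotype became 4 without the low-count filter and 0 to 1 when each sample was left out. Of 615 alternatives over the 38 named results, 562 kept their call or moved by less than the spread between replicates, 49 lost the call and 4 moved by more. Among these, 5 alternatives of 3 results with small differences had the other sign: ECT2 without wild-type 1 (-0.059), TBL1XR1 without wild-type 1 (-0.016) and in R475C alone (-0.089), and the set difference of PIK3CA without wild-type 4 (0.014) or R475C 2 (0.02). The spread used is the SD between single samples, so a large move can still count as within it. POLQ, which went from 0.511 to 0.241 without wild-type 1, was counted so. The difference of SLC35G2 ran from -0.528 to -0.16 when each sample was left out. The cause of these changes was not tested. With 2 samples of a set in R475C, and 8928539 counts in the shallowest, differences of low genes are the least precise.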
